A study of Mus musculus with 1507 samples.

Results

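The genes described here were 40 factors of ribosome biogenesis and the nucleolus. They come out of 47643 genes in the GENCODE vM9 annotation, on which the values of the series rest. The 40 were taken by name for what their products do and not for any measured value, though earlier results of these data were known. All 40 were found in the annotation, and all 40 passed the filter on low values in every comparison below. By known function they fall into 5 factors of RNA polymerase I transcription (*Polr1a*, *Polr1b*, *Polr1e*, *Ubtf*, *Tcof1*), 6 nucleolar scaffold or multifunctional proteins (*Ncl*, *Npm1*, *Nolc1*, *Ddx21*, *Gnl3*, *Mybbp1a*), 3 proteins of box C/D small nucleolar ribonucleoproteins (snoRNPs) (*Fbl*, *Nop56*, *Nop58*), 4 of box H/ACA snoRNPs (*Dkc1*, *Nhp2*, *Nop10*, *Gar1*), 11 factors of small subunit assembly (*Heatr1*, *Utp14a*, *Utp18*, *Utp20*, *Wdr43*, *Wdr75*, *Nop14*, *Noc4l*, *Rrp9*, *Rrp12*, *Bysl*) and 11 of large subunit assembly (*Pes1*, *Bop1*, *Wdr12*, *Nop2*, *Nop16*, *Rrp1b*, *Rrs1*, *Nip7*, *Mdn1*, *Noc2l*, *Noc3l*).

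Ribosomes are built in the nucleolus, where RNA polymerase I copies the rRNA genes into a long precursor that snoRNPs modify and assembly factors fold, cut and pack with ribosomal proteins. Box C/D snoRNPs guide methylation of the rRNA and box H/ACA snoRNPs guide conversion of uridine to pseudouridine. Embryonic stem (ES) cells divide fast and carry large nucleoli, and primitive endoderm (PrE) is the first extraembryonic endoderm that the inner cell mass of the mouse embryo gives rise to.

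The series holds 1507 samples of RamDA-seq, a full-length total RNA method that primes with random hexamers depleted of rRNA sequence and with oligo-dT, and of other methods set beside it. Every sample came from the mouse ES line 5G6GR, in which a vector for a Gata6 fusion to the glucocorticoid receptor (Gata6-GR) with puromycin resistance sits at a random site of the EB5 line, so that ES cells carried it too. Cells grew without feeders in serum and LIF, and dexamethasone, given in place of blasticidin, turned ES cells into PrE cells over 72 h. The single-cell groups used here were the time course with 92, 91, 93, 87 and 93 cells at 0, 12, 24, 48 and 72 h, ES cells sorted by Hoechst stain in G1 (93 cells), S (91) and G2/M (93), 9 wells of a lysate pooled from 180 G1 cells, 9 wells of 10 pg ES cell RNA, and 39 PrE and 16 ES cells of the C1 microfluidic system. On 4 plates handled by 2 experimenters on separate days (B1, B2, E1, E2), 38, 47, 56 and 54 wells held PrE cells and 58, 49, 40 and 42 held ES cells. Libraries of ES cell RNA were 3 of RamDA-seq against 4 of SMART-Seq v4 at 10 pg, 3 of rRNA-depleted (rdRNA-seq) against 3 of poly(A)-selected RNA (paRNA-seq) at 1 µg, and 3 of RamDA-seq against 3 of rdRNA-seq at 1 ng. Bulk libraries of PrE cells were not analysed here. The labels name no separate cultures within a time, phase or C1 type, each of which therefore counts as 1 culture, so these groups have no test and differences between them are descriptions.

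The labels held against marker genes. The 6 ES markers summed to a mean of 41.4 TPM (a share of the library corrected for transcript length) at 72 h and 929 TPM at 0 h, and to 68.4 to 114 TPM in PrE wells and 962 to 1123 TPM in ES wells of the plates. The 9 PrE markers summed to 7502 TPM at 72 h and 215 TPM at 0 h, and to 8529 to 11064 TPM in PrE wells and 229 to 1551 TPM in ES wells, the highest ES value being that of plate B2. The 4 trophectoderm markers stayed at or below 5.15 TPM in sum in every group. Of the 384 plate wells, 22 had fewer than 1000 detected transcripts (TPM of at least 0.1), and 15 had a summed level of 0 over the 40 members. Wells with fewer detected transcripts than the lower quartile of their group minus 1.5 interquartile ranges numbered 27 and the kept wells 357, and the plate results are given with all wells and with the kept wells. In 1 of the 27 wells, on PrE plate E1, the members summed to 125166 TPM, 90672 TPM of it assigned to *Nop56* and 33015 TPM to *Fbl*.

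Most of the 40 members were lower in PrE than in ES cells. In a limma fit to the 4 plate means of each type (log2(TPM + 1), all wells, Benjamini-Hochberg adjusted p of at most 0.05 over 16202 genes), 2 members rose and 24 fell, where 34.8% of all genes rose and 24.5% fell. With the kept wells the counts were 2 and 29, against 35.8% and 29.1% of 16459 genes. The median log2 difference of the members was −0.42 with all wells and −0.47 with the kept wells, and that of all genes was 0.09 and 0.06. With the kept wells, every PrE plate lay below every ES plate for 26 members and above every ES plate for 2, and 26.1% and 33.7% of all genes behaved in these ways. Thus the higher calls took a smaller share of the members than of all genes, and the lower calls a larger one. The p-values measure the spread between these plates, which are not known to hold separate cultures. The values per plate below are means over the kept wells, in the order B1, B2, E1 and E2.

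**Figure D1:**
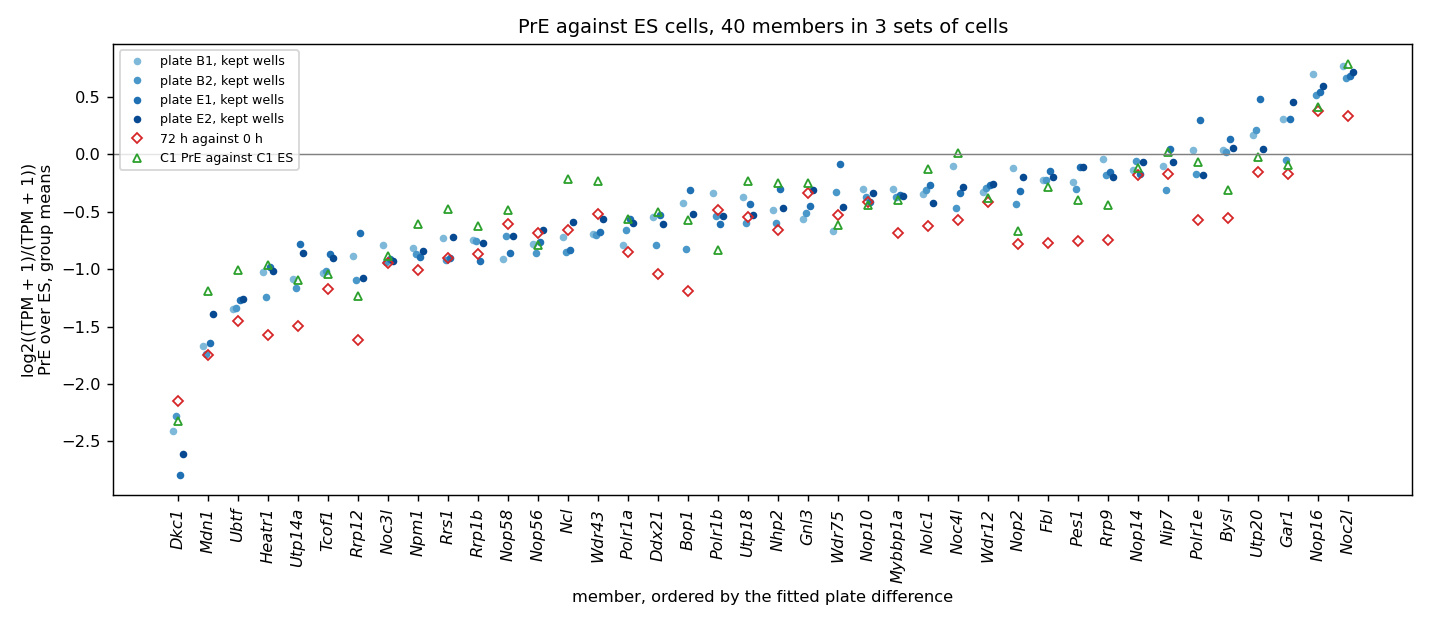
Log2 difference of group means, log2((TPM + 1)/(TPM + 1)), PrE over ES (vertical axis, no error bars), for each of the 40 members (horizontal axis, ordered by the fitted plate difference). Filled circles are the 4 plates with the kept wells, diamonds 72 h against 0 h and triangles C1 PrE against C1 ES. *Dkc1* lies lowest in all 3 sets of cells, and *Nop16* and *Noc2l* lie above 0 in all 3.

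Among the RNA polymerase I factors 4 of 5 fell, with either set of wells. *Ubtf* encodes the upstream binding factor, which coats active rRNA genes. It had 19.1, 18.7, 19.6 and 20.5 TPM in PrE cells, against 50.1, 48.9, 48.7 and 50.4 TPM in ES cells. No PrE plate came near an ES plate, and the log2 difference was −1.30 ± 0.07 (SE, limma, adjusted p = 2.24e-07; −1.27 with all wells). *Polr1a*, the gene of the largest polymerase subunit and the most abundant of this group over the time course, had 40.9, 40.5, 47.5 and 43.8 TPM in PrE cells, against 71.3, 64.5, 70.5 and 66.9 TPM in ES cells. Its fall was smaller, at −0.65 ± 0.08 (adjusted p = 8.28e-05). *Tcof1*, which encodes the nucleolar protein treacle, averaged 26.04 ± 0.78 TPM in PrE and 51.6 ± 3.44 TPM in ES cells (SD, n = 4 plates each). *Polr1e*, a further polymerase subunit, was the exception of the group, with 12.2, 10.3, 15.5 and 10.1 TPM in PrE cells and 11.9, 11.7, 12.4 and 11.6 TPM in ES cells. Its groups overlapped, and the difference was −0.01 ± 0.13.

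All 6 scaffold genes fell with the kept wells and 5 with all wells. *Npm1*, which encodes nucleophosmin and had the highest mean TPM of all members over the time course, had 215, 194, 223 and 188 TPM in PrE cells, against 380, 354, 416 and 339 TPM in ES cells. On the PrE plates E1 and E2 *Nop56* lay above it. The PrE and ES plates of *Npm1* did not overlap, and the difference was −0.86 ± 0.09 (limma, adjusted p = 4.17e-05). The other 5 lay between −0.75 for *Ncl*, the nucleolin gene, and −0.34 for *Nolc1*, a snoRNP chaperone gene. *Mybbp1a*, whose product represses RNA polymerase I transcription, fell by 0.35 with the kept wells (adjusted p = 0.0041) and was not called with all wells (adjusted p = 0.055).

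The snoRNP proteins differed within their complexes. *Nop56*, a core box C/D protein gene, had 211, 190, 231 and 221 TPM in PrE cells, against 363, 345, 394 and 349 TPM in ES cells. That is a fall of −0.76 ± 0.09 (limma, adjusted p = 4.99e-05), whereas with all wells the E1 PrE mean became 1847 TPM and the difference 0.04 (adjusted p = 0.97). *Nop58*, its partner, fell by 0.80. *Fbl* encodes fibrillarin, the methyltransferase of the same complex, and was not called, at −0.20 ± 0.09 with the kept wells (adjusted p = 0.089) and 0.68 with all wells (adjusted p = 0.47).

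*Dkc1* fell farthest of the 40. It encodes dyskerin, the pseudouridine synthase of box H/ACA snoRNPs and a protein of telomerase. PrE cells had 16.4, 20.04, 15.9 and 18.6 TPM, against 91.6, 101, 116 and 119 TPM in ES cells. Every PrE plate lay far below the lowest ES plate, and the difference was −2.52 ± 0.11 (limma, adjusted p = 1.12e-07; −2.47 with all wells). The 3 partners of dyskerin did not share this size of fall: *Nhp2* was at −0.46 ± 0.09 and *Nop10* at −0.35 ± 0.13. *Nop10* was called with the kept wells (adjusted p = 0.038) but not with all wells (adjusted p = 0.081; 0.014 with the plate as a block and all wells). *Gar1* had 30.98, 26.6, 39.6 and 39.3 TPM in PrE cells and 24.8, 27.5, 31.8 and 28.4 TPM in ES cells. These ranges overlap, and the difference of 0.26 ± 0.14 was not called (adjusted p = 0.14), although with the plate as a block and all wells it was (0.30, adjusted p = 0.035).

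Small subunit factors fell in 7 of 11 cases with the kept wells and 6 with all wells, and none rose. *Heatr1*, whose yeast counterpart belongs to the early complex on the rRNA precursor, had 11.9, 10.9, 14.9 and 13.3 TPM in PrE cells, against 25.3, 27.2, 30.3 and 27.998 TPM in ES cells. The difference was −1.07 ± 0.11 (limma, adjusted p = 2.09e-05). *Utp14a* and *Rrp12* followed at −0.97 and −0.94. *Wdr75*, the most abundant of this group over the time course, had 30.9, 41.8, 39.3 and 30.5 TPM in PrE cells and 49.5, 52.6, 41.9 and 42.2 TPM in ES cells. The B2 value of PrE cells and the E1 value of ES cells nearly touched, and the fall of 0.38 (adjusted p = 0.029) was absent with all wells (0.05, adjusted p = 0.92), where 1 of the wells left out brought the B2 PrE mean to 110 TPM. *Noc4l* fell by 0.30 with the kept wells (adjusted p = 0.033) and lost its call with the plate as a block and all wells (adjusted p = 0.057). *Bysl* (0.06), *Nop14* (−0.11), *Rrp9* (−0.14) and *Utp20* (0.23, adjusted p = 0.079) were not called.

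Large subunit factors held both the second largest fall and the only genes that rose. *Mdn1* encodes midasin, a very large ATPase that strips assembly factors from the precursor of the large subunit. It had 22.7, 20.7, 21.3 and 21.4 TPM in PrE cells, against 74.3, 71.6, 68.4 and 57.7 TPM in ES cells. The PrE plates were close to each other and far below every ES plate (−1.61 ± 0.09, limma, adjusted p = 5.42e-07; −1.95 with all wells). *Rrp1b*, the most abundant gene of the group over the times, had 31.8, 33.9, 33.1 and 33.998 TPM in PrE cells and 53.9, 58.0, 64.0 and 58.8 TPM in ES cells. *Pes1*, *Bop1* and *Wdr12* encode the 3 proteins of 1 complex (PeBoW) and were at −0.19 (not called, adjusted p = 0.096), −0.52 and −0.29.

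*Noc2l* and *Nop16* went the other way. *Noc2l* encodes a nucleolar protein that also binds histones, and had 50.9, 50.6, 54.5 and 51.0 TPM in PrE cells, against 29.5, 31.6, 33.7 and 30.6 TPM in ES cells. *Nop16* had 21.01, 19.5, 22.1 and 19.9 TPM in PrE cells, against 12.6, 13.3, 14.9 and 12.8 TPM in ES cells. All 4 PrE plates were above all 4 ES plates for both genes, by 0.71 ± 0.07 (limma, adjusted p = 2.46e-05) and 0.59 ± 0.08 (adjusted p = 1.78e-04). *Noc3l*, whose yeast counterpart acts in a complex with that of *Noc2l*, fell by 0.89 at the low level of 2.87 ± 0.21 TPM in PrE and 6.18 ± 0.50 TPM in ES cells.

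The promoters of 4 members are shown to set 2 of the largest falls (*Dkc1*, *Mdn1*) beside 2 of the smallest differences (*Polr1e*, *Bysl*). Each window runs from 250 bases before to 50 bases after the start site, as RefSeq gives it for GRCm38.p6, 5′ to 3′ on the gene's strand. Capitals mark CACGTG, the E-box hexamer, which reads the same on both strands. The windows lie at chrX:75095604-75095903 (plus strand), chr4:32656869-32657168 (plus), chr4:45018359-45018658 (plus) and chr17:47611443-47611742 (minus).
Dkc1: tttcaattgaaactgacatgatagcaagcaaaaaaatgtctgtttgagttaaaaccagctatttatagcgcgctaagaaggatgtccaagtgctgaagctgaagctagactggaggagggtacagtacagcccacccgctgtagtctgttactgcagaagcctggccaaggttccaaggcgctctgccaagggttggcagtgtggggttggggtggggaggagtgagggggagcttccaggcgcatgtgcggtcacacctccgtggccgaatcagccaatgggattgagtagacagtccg
Mdn1: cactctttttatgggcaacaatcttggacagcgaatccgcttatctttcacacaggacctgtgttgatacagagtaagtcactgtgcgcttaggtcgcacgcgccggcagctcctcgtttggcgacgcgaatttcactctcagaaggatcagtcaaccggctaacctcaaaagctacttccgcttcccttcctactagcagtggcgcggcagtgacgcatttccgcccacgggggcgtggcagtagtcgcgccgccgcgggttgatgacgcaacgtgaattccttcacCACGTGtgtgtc
Polr1e: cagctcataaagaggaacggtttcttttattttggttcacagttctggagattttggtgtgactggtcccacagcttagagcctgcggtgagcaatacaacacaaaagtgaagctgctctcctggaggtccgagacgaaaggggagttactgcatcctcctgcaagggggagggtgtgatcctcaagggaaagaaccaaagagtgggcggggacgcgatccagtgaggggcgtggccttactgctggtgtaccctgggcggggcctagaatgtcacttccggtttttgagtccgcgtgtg
Bysl: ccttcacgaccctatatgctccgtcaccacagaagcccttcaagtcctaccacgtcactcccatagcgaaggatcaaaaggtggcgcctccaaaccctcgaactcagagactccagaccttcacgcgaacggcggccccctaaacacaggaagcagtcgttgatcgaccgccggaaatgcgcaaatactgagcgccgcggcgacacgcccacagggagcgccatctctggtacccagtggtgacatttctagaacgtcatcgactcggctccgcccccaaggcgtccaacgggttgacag
The hexamer occurs once in these 4, in *Mdn1*, starting 38 bases after the start site, and the letters are not in the other 3 windows. RefSeq windows were matched for 34 of the 40 members, of which 7 (20.6%) hold CACGTG (*Mdn1*, *Mybbp1a*, *Nop2*, *Pes1*, *Utp18*, *Utp20* and *Wdr43*), where 8.09% of 27025 genes do. Of these 7, *Pes1* and *Utp20* were not called on the plates with either set of wells, and *Mybbp1a* and *Nop2* (adjusted p = 0.16) were not called with all wells. Over the matched members the median GC content was 58.0%, where it was 52.7% over all promoters.

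The time course, a separate set of cells, gave the order in which the members moved, described here by the means over cells with no test. At 12 h, 1 member was at least 1.5-fold above 0 h on the (TPM + 1) scale and 0 were as far below, beside 7.39% and 13% of 15475 genes. The count of 1 depends on the processing, at 0 with a fold of 2, 4 with medians over cells, 5 with median ratio scaling and 6 with merged gene models. Smaller differences had a common sign: 36 of 40 members were above their 0 h level, with a median log2 difference of 0.26, where all genes had −0.06. The cells of 0 h are shared between the comparisons at 12 and 72 h. *Polr1e* stood highest at 17.8 TPM at 12 h and 11.5 TPM at 0 h (0.59), before *Ddx21*, an RNA helicase gene (92.5 TPM at 12 h, 61.7 TPM at 0 h, 0.58), *Bysl* (14.6 and 9.54 TPM, 0.57) and *Nop16* and *Nop56* (0.52 each). *Nop10* (−0.18), *Pes1* (−0.10), *Tcof1* (−0.07) and *Ubtf* (−0.01) were the 4 members under 0.

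At 72 h the picture was the opposite. Of the 40 members, 24 were at least 1.5-fold below 0 h and 0 were as far above, beside 21.7% and 22.7% of 15961 genes. In all, 38 members lay below their 0 h level, and the median log2 difference was −0.67 where all genes had −0.01. The mean of 30 members was highest at 12 h, of 4 at 24 h, of 4 at 0 h and of 2 at 48 h, and 38 were lowest at 72 h. Only *Ubtf*, *Tcof1* and *Nop10* were lower at each time than at the one before. At 24 h 35 members were below their level at 12 h, at 48 h again 35 were below that at 24 h, and at 72 h all 40 were below that at 48 h. The median log2 differences of these steps were −0.37, −0.22 and −0.44 for the members. For all genes they were 0.24, −0.10 and −0.08. How many of all genes were highest at 12 h, lowest at 72 h or lower at each step was not counted.

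**Figure D2:**
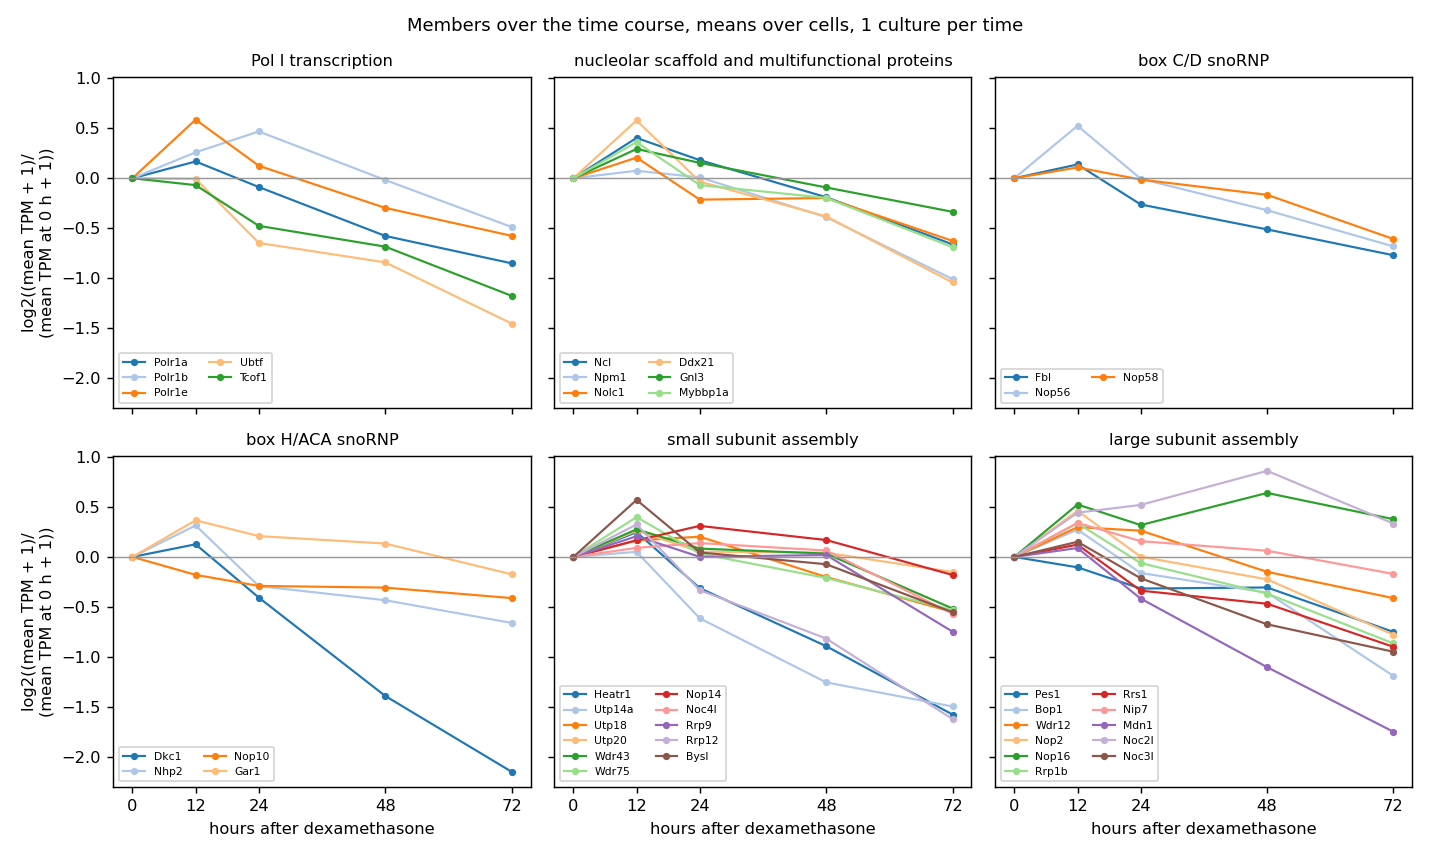
Log2 ratio of the mean TPM + 1 at each time to that at 0 h (vertical axis) against hours after dexamethasone (horizontal axis), 1 line per member in panels by role. Points are means over 87 to 93 cells of 1 culture per time, without error bars. Most lines peak at 12 h and end below 0 at 72 h, *Dkc1* lowest at −2.15, with *Nop16* (0.38) and *Noc2l* (0.33) above 0.

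Single genes showed how wide the cells spread around these means. *Dkc1* had a median of 160 TPM at 0 h (lowest cell 62.1, highest 312), 184 TPM at 12 h, 125 TPM at 24 h, 56.7 TPM at 48 h and 30.7 TPM at 72 h (lowest 0.80, highest 171). Some cells at 72 h thus still lay within the range of 0 h cells, while the median was below the lowest 0 h cell. *Mdn1* had medians of 64.6, 75.5, 45.2, 28.7 and 17.95 TPM over the 5 times, with cells from 1.12 to 52.7 TPM at 72 h and from 25.1 to 115 TPM at 0 h. The means of *Rrp12* were 6.00 TPM at 72 h and 20.5 TPM at 0 h (−1.62), and those of *Heatr1* 12.1 and 37.96 TPM (−1.58). *Npm1* had medians of 583, 631, 597, 428 and 284 TPM, and *Nop56* of 392, 565, 395, 318 and 237 TPM. These abundant genes were detected in every cell at every time. *Polr1a* had medians of 51.0, 62.1, 51.9, 36.7 and 30.2 TPM.

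The 2 genes that rose on the plates also differed from the others in their course. *Noc2l* had medians of 34.8, 51.9, 50.5, 67.9 and 44.8 TPM, and *Nop16* of 20.96, 30.3, 24.2, 31.8 and 26.4 TPM. Both had their highest mean at 48 h, which no other member did. Both were lower at 72 h than at 48 h and still above 0 h.

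Summed over the 40 members, a cell held a median of 3081 TPM at 0 h, 3873 TPM at 12 h, 3099 TPM at 24 h, 2538 TPM at 48 h and 1790 TPM at 72 h. The middle cells of 72 h (quartiles 1515 and 1958 TPM) lay below every cell of 0 h, whose lowest held 2126 TPM. By role, the sums of mean TPM at 72 h were 0.47 of those at 0 h for box H/ACA proteins, 0.49 for RNA polymerase I factors, 0.56 for scaffold proteins, 0.61 for small subunit factors and 0.63 each for box C/D proteins and large subunit factors. The first of these ratios rests on *Dkc1*, and the other 3 H/ACA genes summed to 107 TPM at 72 h and 139 TPM at 0 h, a ratio of 0.77. By the median log2 difference of the members, box H/ACA proteins came last of the 6 roles (−0.54), after small subunit factors (−0.55), scaffold proteins and box C/D proteins (−0.68 each), large subunit factors (−0.78) and RNA polymerase I factors (−0.85). The ribosomal protein genes, as a further set, summed to a median of 40288 TPM at 72 h and 47317 TPM at 0 h. Markers of the cell cycle moved over the same times: the 6 S phase markers summed to 231 TPM at 72 h and 374 TPM at 0 h, and the 6 G2/M markers to 249 TPM at 72 h and 372 TPM at 0 h. At 12 h these sums were 335 TPM for the S phase and 496 TPM for the G2/M markers. The median number of detected transcripts was 37768 at 72 h and 39712.5 at 0 h. Over the cells of each time, the summed level of the members was set beside the number of detected transcripts. From 0 to 72 h Pearson's r was 0.06, 0.60, 0.37, 0.26 and 0.11. Spearman's rho was −0.06, 0.42, −0.17, −0.09 and 0.11. With the TPM share of rRNA loci, mitochondrial ones included, r was 0.03, −0.28, −0.61, −0.59 and −0.22 from 0 to 72 h. The rho with this share was −0.03, −0.26, −0.32, −0.45 and −0.20. The part of these measures in the members' levels over time was not tested.

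**Figure D3:**
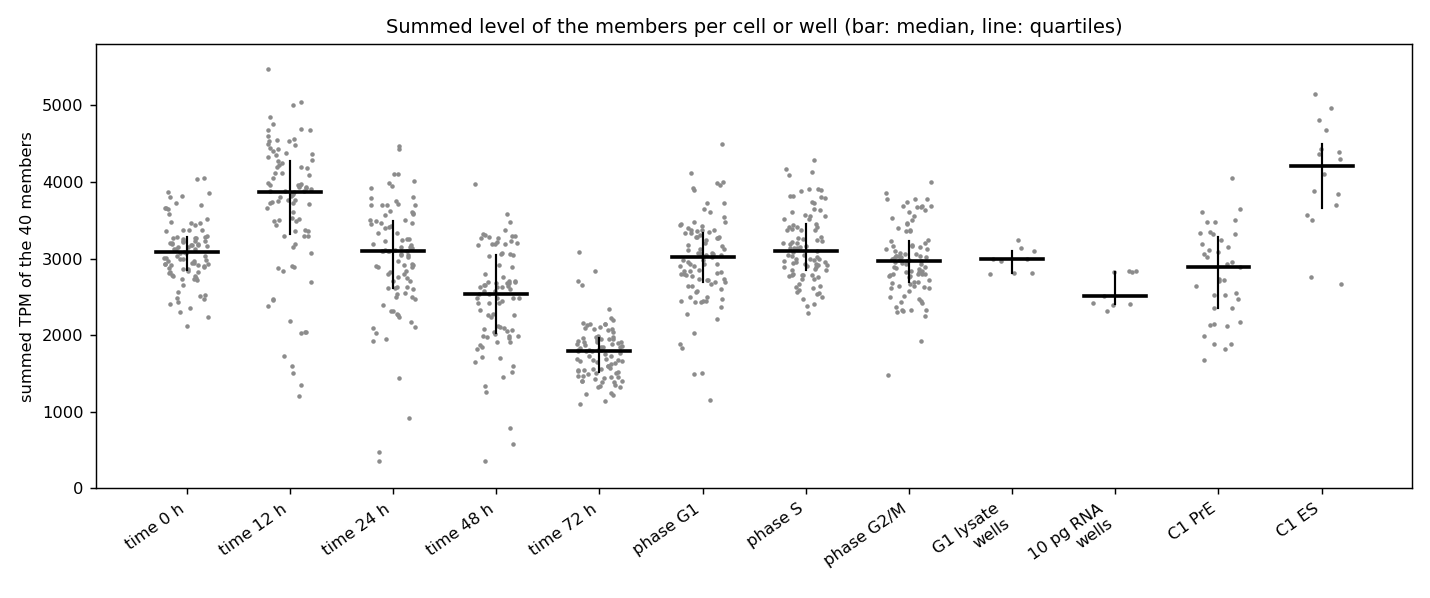
Summed TPM of the 40 members (vertical axis) in each cell or well (points) by group (horizontal axis), with the median as a bar and the quartiles as a line. The medians are 3873 TPM at 12 h and 1790 TPM at 72 h, between 2967 and 3092 TPM in the 3 phases, and 2886 TPM in C1 PrE and 4202 TPM in C1 ES cells.

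Between the sorted phases of ES cells few genes passed the fold of 1.5. The counts of 0 members lie near the shares of all genes and do not set the members apart. In S against G1 cells, 0 members were at least 1.5-fold higher and 0 lower, beside 4.01% and 1.75% of 16453 genes, and in G2/M against G1 cells again 0 and 0, beside 3.77% and 0.91% of 16591 genes. The G1 cells are shared by both comparisons. The summed medians were 3024 TPM in G1, 3092 TPM in S and 2967 TPM in G2/M cells, whereas the 6 G2/M markers summed to 873 TPM in G2/M and 230 TPM in G1 cells. The 6 S phase markers set S apart from G1 cells far less, at 359 TPM in S and 325 TPM in G1 cells. The member farthest up in S cells was *Utp18*, with means of 22.3 TPM in S and 16.9 TPM in G1 cells (0.38), and the farthest down was *Nop2*, an RNA methyltransferase gene, with 31.4 and 39.3 TPM (−0.32). *Noc3l* (0.33), *Pes1* (0.32) and *Wdr43* (0.30) came next above, and *Nolc1* (−0.31), *Nhp2* (−0.27) and *Ddx21* (−0.24) next below. In G2/M cells *Ubtf* was highest relative to G1, with means of 52.5 TPM in G2/M and 41.8 TPM in G1 cells (0.32), and *Nolc1* lowest, with means of 23.2 and 30.8 TPM (−0.39). For both genes the ranges over cells overlapped widely.

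In cells of the C1 system, made with another handling of cells, 14 members were at least 1.5-fold lower in PrE than in ES cells and 1 was higher, beside 20.9% and 27.7% of 15992 genes. The median log2 difference was −0.44 for the members and 0.07 for all genes. *Dkc1* was again lowest, with a median of 26.9 TPM in 39 PrE cells (3.98 to 111) and 182 TPM in 16 ES cells (87.3 to 308). *Rrp12* (−1.23), *Mdn1* (−1.19) and *Utp14a* (−1.09) followed, and *Noc2l*, with means of 81.2 TPM in PrE and 46.8 TPM in ES cells, was the 1 gene past the fold upward (0.78). *Nop16* was at 0.41. The signs of the 3 sets of cells, all of the same line but not of the same protocol, can be put side by side. Of the members, 33 were below 0 on the plates with the kept wells, at 72 h and in C1 cells. Above 0 in all 3 were 2 (*Nop16*, *Noc2l*), and 5 differed in sign. Of the 14589 genes with a value in all 3 sets, 34.6% were below 0 in all 3, 39.9% were above and 25.4% differed in sign. The 12 members that were at least 1.5-fold lower both at 72 h and in C1 cells are 50% of the 72 h list and 85.7% of the C1 list, where the genes lower in both are 71.9% and 78.2% of the lists of all genes.

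The other factors of the same pathway, from lists drawn up by function, were counted in the same way on the plates. With all wells, 4 of 13 further RNA polymerase I factors rose and 4 fell, 2 of 37 further small subunit factors rose and 11 fell, 4 of 37 further large subunit factors rose and 14 fell, and 0 of 8 snoRNP assembly factors rose and 3 fell, beside the 34.8% of all genes that rose and 24.5% that fell. With the kept wells the falls were 6, 20, 23 and 4, beside 29.1% of all genes. *Rrp7a* rose by 1.11 (adjusted p = 4.01e-05), *Pwp1* by 0.67 and *Polr1d*, a subunit shared by RNA polymerases I and III, by 0.62. *Baz2a*, a gene of the complex that silences rRNA genes, fell by 1.02, *Nat10*, an RNA acetyltransferase gene, by 0.91 and *Nufip1* by 0.56. At 72 h, 5 of the 13, 12 of the 37, 15 of the 37 and 3 of the 8 were at least 1.5-fold below 0 h, beside 21.7% of all genes. Several of these counts, such as 4 of 13 in either direction and 11 of 37, lie near the shares of all genes.

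The cells of 1 phase were compared with wells of pooled lysate to set the spread between cells beside that of the method. The coefficient of variation (CV, SD over mean of TPM) of the members had a median of 0.33 over 93 G1 cells and 0.21 over 9 lysate wells, and of 0.24 over 9 wells of 10 pg RNA. All genes of at least 10 TPM had 0.43, 0.31 and 0.30. For 36 members the CV over cells was above that over lysate wells, the exceptions being *Utp14a*, *Noc4l*, *Bysl* and *Noc3l*. The median CV of all genes was also higher over cells, and how many of them lay above was not counted. *Ddx21* had the largest ratio of both, 4.17, with a CV of 0.35 over cells and 0.084 over lysate wells. Its level ran from 14.2 to 106 TPM over G1 cells and from 46.4 to 58.4 TPM over lysate wells. *Utp18* (3.18) and *Bop1* (3.01) followed. *Npm1* varied least over cells (0.22). The summed level of the members and the TPM share of rRNA loci had an r of −0.46 over G1 cells. This r was −0.63 over lysate wells and −0.90 over wells of 10 pg RNA. The part of that share in the CVs was not tested. Over the times the median CV was 0.28, 0.33, 0.38, 0.41 and 0.38 from 0 to 72 h. All genes of at least 10 TPM had 0.37, 0.44, 0.41, 0.45 and 0.41. With TPM rescaled to nuclear protein-coding genes the members had 0.27 at 0 h and 0.26 at 12 h.

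**Figure D4:**
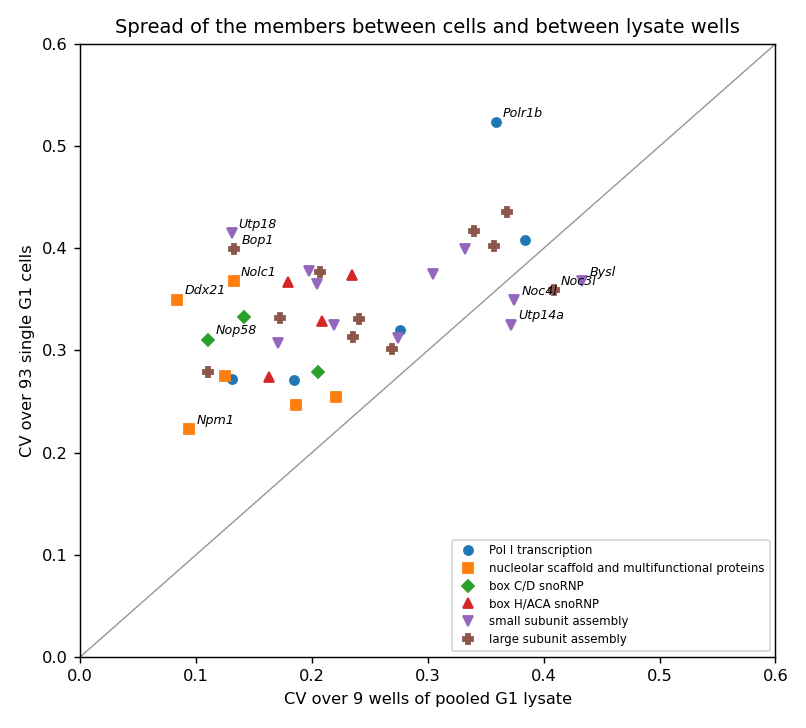
CV of TPM over 93 single G1 cells (vertical axis) against CV over 9 wells of pooled G1 lysate (horizontal axis), 1 point per member, with symbols by role and a line of equal values. Of the 40 points 36 lie above the line, and the same count over all genes was not made. *Ddx21* is at 0.35 and 0.084, and *Utp14a*, *Noc4l*, *Bysl* and *Noc3l* lie below the line.

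The library methods weighed the members differently. From 10 pg of the same kind of RNA, 4 members were higher and 10 lower in RamDA-seq than in SMART-Seq v4, an oligo-dT primed full-length method (edgeR quasi-likelihood test, adjusted p of at most 0.05, 12566 genes), beside 7.43% and 6.62% of all genes. The median log2 difference was −0.56 for the members and 0.12 for all genes. Scaled by library size alone, 2 were higher and 19 lower, and without any 1 of the 3 RamDA-seq libraries 2 were higher and 4 or 5 lower. Libraries of both methods were made from ES cell RNA, and these p-values measure the spread between libraries of 1 method. Values are CPM (counts scaled to library size) with TMM factors, and SEs come from the spread between libraries.

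*Mdn1*, with a coding transcript of 17970 bases the longest of the members, had 603, 693 and 868 CPM in RamDA-seq, against 34.2, 89.5, 60.7 and 63.1 CPM in SMART-Seq v4 (3.54 ± 0.32, adjusted p = 6.82e-04). *Ddx21* had 406, 432 and 463 CPM in RamDA-seq, against 89.7, 97.8, 111 and 91.1 CPM in SMART-Seq v4 (2.15 ± 0.09). Libraries of the 2 methods did not overlap for either gene. *Ubtf* was higher by 1.36 ± 0.31 (edgeR, adjusted p = 0.028). In larger sets of 10 pg libraries, untested here and scaled without TMM factors, the methods lay closer for this gene. Its means there were 161 CPM in plate RamDA-seq, 204 CPM in C1-RamDA-seq and 156 CPM in C1-SMART-Seq v4. *Mybbp1a* was higher by 0.46, which turned to −0.20 when scaled by library size alone. *Utp20* and *Heatr1* were also far up but varied between SMART-Seq v4 libraries. *Utp20* had 300, 318 and 458 CPM in RamDA-seq, against 210, 2.73, 19.2 and 75.1 CPM in SMART-Seq v4 (2.22 ± 1.34, adjusted p = 0.27), and *Heatr1* was at 1.73 ± 0.54 (adjusted p = 0.056).

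The members farthest down were short genes of the H/ACA complex. *Nhp2* (longest coding transcript 1042 bases) had 49.2, 51.6 and 67.6 CPM in RamDA-seq, against 395, 455, 310 and 312 CPM in SMART-Seq v4 (−2.71 ± 0.20, edgeR, adjusted p = 4.71e-04). *Nop10* had 34.7, 55.0 and 43.8 CPM in RamDA-seq, against 217, 355, 276 and 228 CPM in SMART-Seq v4 (−2.59 ± 0.25). Their partner *Gar1* was at −1.64 and *Rrs1*, a large subunit factor gene, at −1.79. So 3 of the 4 genes of this complex were called lower in RamDA-seq. *Dkc1* was not called (−0.65 ± 0.30, edgeR, adjusted p = 0.24) and varied between SMART-Seq v4 libraries. It had 200, 171 and 202 CPM in RamDA-seq, against 403, 211, 398 and 188 CPM in SMART-Seq v4. In the larger sets, untested here, its mean was 123 CPM in plate RamDA-seq, 144 CPM in C1-RamDA-seq and 478 CPM in C1-SMART-Seq v4. *Npm1* had 799, 833 and 821 CPM in RamDA-seq, against 2168, 2433, 2382 and 2304 CPM in SMART-Seq v4 (−1.51 ± 0.04). *Ncl* was lower as well (−1.29), but its reads were mostly assigned to a retained-intron transcript, 53.5% in RamDA-seq libraries, against 91.0% in those of SMART-Seq v4, and over protein-coding transcripts alone the sign reversed (1.22, adjusted p = 0.034).

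**Figure D5:**
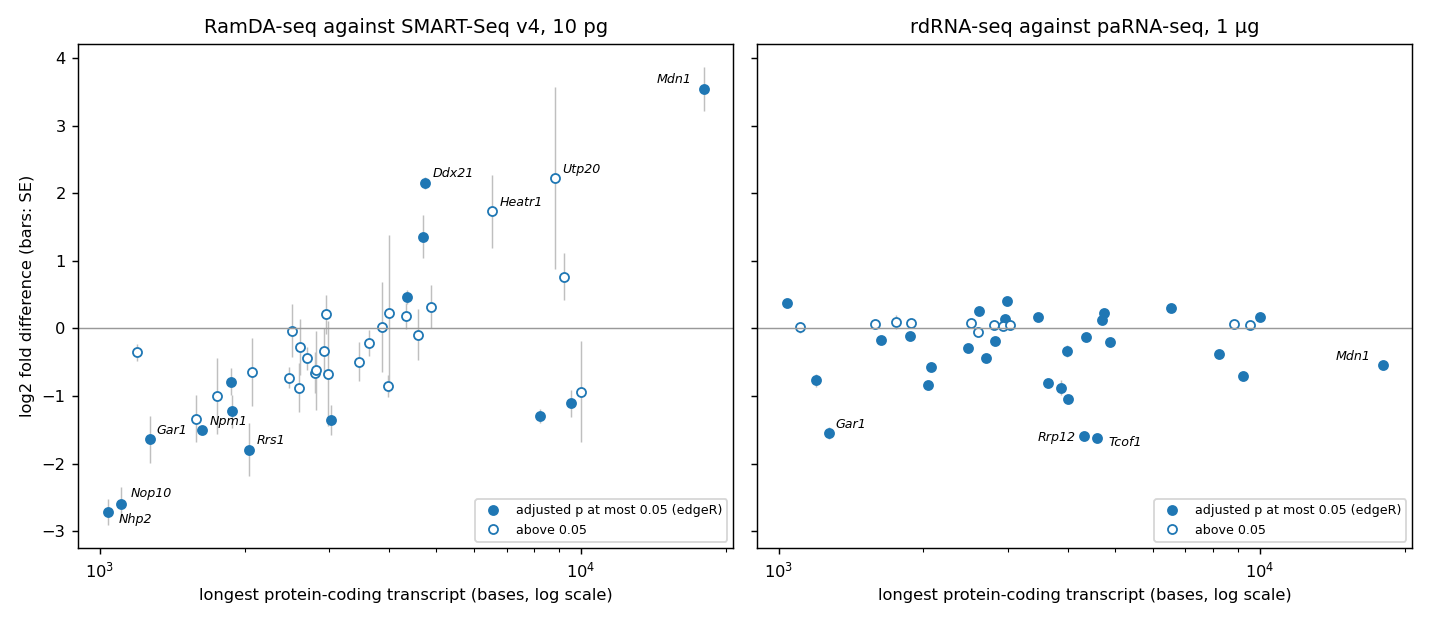
Log2 fold difference (vertical axis, bars are SE) against the length of the longest protein-coding transcript in bases (horizontal axis, log scale) for the 40 members, RamDA-seq over SMART-Seq v4 at 10 pg (left panel) and rdRNA-seq over paRNA-seq at 1 µg (right panel). Filled points have an edgeR adjusted p of at most 0.05. At 10 pg *Nhp2* is lowest (−2.71) and *Mdn1* highest (3.54), and at 1 µg *Mdn1* is at −0.55.

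Across the 40 members, the difference between RamDA-seq and SMART-Seq v4 and the log of transcript length had a Pearson's r of 0.69 (Spearman's rho 0.63), a description over genes of the same libraries, which are not independent replicates. The same was not computed over all genes, so it is not shown to be particular to the members. Length here is that of the longest annotated coding transcript, such as 10012 bases for *Wdr12*, which need not be the transcript expressed. The median log2 difference was −2.12 for the 4 members up to 1500 bases, −0.67 for 17 between 1500 and 3000 bases and 0.19 for 19 above. At 1 µg between rdRNA-seq and paRNA-seq r was −0.03, and at 1 ng between RamDA-seq and rdRNA-seq it was 0.24.

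At 1 µg, 9 members were higher and 20 lower in rdRNA-seq than in paRNA-seq (edgeR, 14347 genes), beside 23.8% and 26% of all genes, and 0 and 35 when scaled by library size alone. *Tcof1* had 92.8, 90.5 and 93.5 CPM in rdRNA-seq, against 276, 287 and 291 CPM in paRNA-seq (−1.63 ± 0.03). *Rrp12* (−1.58), *Gar1* (−1.55) and *Polr1b* (−1.04) were the next lowest, again with no overlap between libraries. Upward differences were small: *Polr1e* had 27.7, 26.9 and 30.1 CPM in rdRNA-seq, against 21.5, 21.7 and 20.5 CPM in paRNA-seq (0.41 ± 0.05). *Nhp2* was at 0.38, and *Heatr1* (0.30) and *Utp18* (0.26) were also higher but turned to −0.010 and −0.055 when scaled by library size alone. *Gar1* was thus lower in both comparisons, while *Nhp2* was lower in RamDA-seq at 10 pg and higher in rdRNA-seq at 1 µg.

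At 1 ng, 4 members were higher and 21 lower in RamDA-seq than in rdRNA-seq (edgeR, 14769 genes), beside 18.2% and 19.8% of all genes. *Npm1* had 454, 519 and 488 CPM in RamDA-seq, against 2205, 2093 and 2188 CPM in rdRNA-seq (−2.15 ± 0.06). *Nhp2* had 31.5, 34.9 and 30.4 CPM in RamDA-seq, against 130, 146 and 134 CPM in rdRNA-seq (−2.08 ± 0.08), and *Ncl* (−1.92) and *Rrs1* (−1.50) followed. The 3 libraries of each method were far apart for these genes. The genes higher in RamDA-seq, *Nip7* (0.40), *Noc2l* (0.38), *Rrp12* (0.37) and *Mdn1* (0.15, adjusted p = 0.043), differed less.

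Some members hold other genes. Annotated snoRNA genes lie inside 6 of the 40 members (15%), where 1.16% of 21971 protein-coding genes have one: *Nop56* holds 5, *Nop58* 4, *Ncl*, *Gnl3* and *Wdr43* 3 each and *Dkc1* 1. Hosts occur among box C/D proteins, scaffold proteins, *Dkc1* and *Wdr43*, and all 6 fell on the plates with the kept wells, by 0.46 (*Gnl3*) to 2.52 (*Dkc1*), as did 29 of all 40 members and 29.1% of all genes. With all wells the host *Nop56* was not called. Retained-intron transcripts took 21.8% of the members' TPM at 72 h and 20.9% at 0 h, and protein-coding transcripts 64.4% at 72 h and 64.0% at 0 h. *Nop56* had 49.1% of its TPM in retained-intron transcripts at 72 h and 53.2% at 0 h. Counting used no strand, so reads of an antisense or overlapping gene cannot be told apart from those of a member.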

How the data were processed

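After adapter trimming, the authors quantified GENCODE vM9 transcripts and ERCC sequences (genome mm10) by Sailfish 0.9.2 without strand. Estimated counts per transcript were deposited by the authors for the libraries from RNA, those of 10 pg and 1 µg after sampling to an equal number of reads. TPM per transcript, which keep no depth, were deposited by the authors for cells and wells. A further TPM table on gene models merged with transcripts assembled after HISAT2 2.0.1 mapping holds 421 cells of the times and served as an alternative. Summed estimated counts per library were 5706350 to 8962910 for the compared methods and 645120 to 956848 in the full sets, and libraries of RamDA-seq carry no molecular identifiers, so intervals and SEs do not separate molecules from copies. Detected transcripts per cell had medians of 37768 to 40983 over the times. In the tables, 8 further per-sample columns of other methods were not used.

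Transcript values were summed per gene. Plate means of TPM were tested with limma 3.58.1 on log2(mean TPM + 1), 4 against 4, for genes with a mean of at least 1 TPM. Estimated counts were rounded and tested with edgeR 4.0.16 (TMM, filterByExpr, quasi-likelihood) and, as an alternative, DESeq2 1.42.0, in R 4.3.3. P-values were adjusted over all genes by Benjamini-Hochberg at 0.05. Times, phases and C1 cells, 1 culture each, were described by a fold of 1.5 between means of TPM + 1. Sums and folds were computed with pandas 2.3.3, scipy 1.17.1 and numpy 2.4.6 in Python 3.11.15, and plots with matplotlib 3.10.9. Since nothing in the labels ties RNA libraries to separate cultures, their p-values measure only the spread between these samples, which may be technical.

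Plates are shared batches by label, so the plate was also fitted as a block. No separate cultures per plate are known, so the plate p-values measure only the spread between plates. Same-plate deviations of PrE and ES means had an r of 0.03 to 0.08 with all wells and 0.07 to 0.15 with the kept wells. Named genes included the most abundant member of each role over the times, members with the largest differences in each comparison and *Mdn1*. For some of them only the log2 difference was given, without values per plate or library. The members, lists, roles and named genes were chosen with earlier results of these data known. Alternatives were another pseudocount, filter, scaling, fold, gene model set or transcript class, the median over cells, blocks, and leaving out libraries, plates or cells of few transcripts. On simulated data with 200 changed genes, limma recovered 43% of 1.5-fold and 84% of 2-fold changes on the plates (15782 genes). For RamDA-seq against SMART-Seq v4 edgeR recovered 0%, 2%, 24% and 62% of 1.5-, 2-, 4- and 8-fold changes (11426 genes).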

Additional observations from a re-analysis of the deposited data

Results flagged for a closer look

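Each of 57 sets of values was tested for 1 sample far from the others, which chance alone gives in about 1 set in 20, and 3 met the rule. All 3 were sets of 4 plate means of PrE cells in which plate E1 stood highest. The summed level of the 40 members with all wells was 4045 TPM on E1, where the other 3 PrE plates had 1523, 1665 and 1703 TPM. One well of E1, of few detected transcripts, held 125166 TPM of members, and the median over the wells of E1 was 1825 TPM.

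With the kept wells, *Noc2l* was at 54.5 TPM on E1, where the other PrE plates had 50.6 to 51.0 TPM, and *Utp20* at 31.2 TPM, where they had 23.6 to 24.7 TPM. For *Noc2l* all 4 PrE plates were still above the 4 ES plates (29.5 to 33.7 TPM), while *Utp20*, at 20.95 to 23.8 TPM in ES cells, overlapped with PrE cells on B1.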

How the results depend on the processing

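The plate counts of members (2 higher, 24 lower) stayed within 1.5 times under every alternative, at 18 to 23 lower without 1 plate, 3 higher and 24 lower with the plate as a block, and, in fits added after seeing the data, 30 lower with the kept wells and that block and 26 to 27 with the kept wells less 1 plate. Rescaling TPM to nuclear protein-coding genes moved the median log2 difference of all genes on the plates from 0.09 to −0.05 and that of the members to −0.57, and in S against G1 cells the medians from 0.11 to 0.00015 (all genes) and from 0.06 to −0.04 (members). For 72 h against 0 h, 10 members were lower at a fold of 2, the other settings keeping the count within 1.5 times. For 12 h against 0 h, the count of 1 member higher became 4 with medians over cells, 4 with TPM rescaled to nuclear protein-coding genes, 5 with median ratio scaling, 2 with protein-coding transcripts only, 3 without cells of few transcripts, 3 with a pseudocount of 0.1, 0 at a fold of 2 and 6 with merged gene models. In C1 cells a fold of 2 gave 0 higher and 6 lower. For RamDA-seq against SMART-Seq v4 (4 higher, 10 lower), scaling by library size alone gave 2 and 19 and moved the median of all genes from 0.12 to −0.54, no filter gave 2 higher, protein-coding transcripts only gave 7 and 6, and leaving out 1 library gave 2 to 5 higher and 4 to 9 lower (2 higher and 4 or 5 lower without RamDA-seq library 1, 2 or 3). *Mybbp1a* reversed to −0.20 by library size and *Ncl* to 1.22 with protein-coding transcripts. For rdRNA-seq against paRNA-seq (9 and 20), library size alone gave 0 and 35, with a median of all genes of −0.31, no filter gave 5 higher and protein-coding transcripts only 15 higher. By library size *Ubtf* (−0.19), *Ddx21* (−0.092), *Heatr1* (−0.010), *Utp18* (−0.055), *Wdr43* (−0.14), *Wdr75* (−0.17) and *Wdr12* (−0.14) reversed, and *Nop56* did with protein-coding transcripts (0.063). At 1 ng, library size alone and protein-coding transcripts only gave 7 higher each. Library numbers did not pair the samples (r of same numbers −0.04 to 0.02): a replicate block by number gave 2 higher and 4 lower at 10 pg, 9 and 20 at 1 µg, and 3 and 20 at 1 ng. The causes of these shifts were not tested. At 10 pg, edgeR recovered 24% of simulated 4-fold changes, so a member not called there is not shown to be equal, and differences of cells of 1 culture have no replicate.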

Other observations

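Larger sets of 10 pg libraries, which enter no test of the report, held the same 40 genes at a lower depth. All 40 were counted in every one of 95 C1-RamDA-seq, 94 C1-SMART-Seq v4 and 96 plate RamDA-seq libraries. The members summed to 7259 ± 229 CPM in C1-RamDA-seq, 11109 ± 385 CPM in C1-SMART-Seq v4 and 6405 ± 263 CPM in plate RamDA-seq (SD over libraries). The median CV over the members was 0.20, 0.29 and 0.24 in this order, and that of all genes of at least 10 CPM was 0.36, 0.53 and 0.40.

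*Mdn1* had a mean of 812 CPM in C1-RamDA-seq, 657 CPM in plate RamDA-seq and 93.3 CPM in C1-SMART-Seq v4, with CVs of 0.14, 0.17 and 0.54. *Nhp2*, at 43.5, 44.2 and 323 CPM, had CVs of 0.24, 0.24 and 0.14. In each of these 2 genes the method with the higher level had the smaller CV. *Npm1* had 430, 440 and 2573 CPM and was among the least variable members in all 3 sets (0.068, 0.11 and 0.064).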
